A study of Mus musculus with 95 samples.

Results

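Kidneys of pristane-injected SNF1 mice collected at week 8 after the injection were compared with those collected at week 4, gene by gene, over all genes on the array. SNF1 mice are the F1 hybrid of the SWR and NZB strains, which develops lupus nephritis spontaneously, and females were used. Pristane is a hydrocarbon oil that speeds up this disease when placed in the peritoneal cavity. The mice received 1 intraperitoneal injection of pristane at 9 weeks of age, so the 10 week 4 mice were 13 weeks old and the 8 week 8 mice were 17 weeks old. The 18 arrays were chosen by their titles (pristane, week 4 or week 8) from the 95 of the series. The same interval in age-matched SNF1 mice without pristane (9 at week 4 and 10 at week 8) served as the background for age, since every pristane kidney at week 8 also came from a mouse 4 weeks older. Each array held RNA from a whole snap-frozen kidney of 1 mouse, so glomeruli, tubules, interstitium, infiltrating cells and any tissue left on the capsule were measured together, and in such bulk RNA fewer cells of a type and less RNA per cell cannot be told apart. The strain is itself lupus-prone, so the untreated mice are not a disease-free control. The methods describe repeated time courses, the labels do not say which mouse belonged to which, and the hour at which kidneys were taken is not given in the sources used here.

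In lupus nephritis, immune complexes lodge in the glomerulus and engage complement and Fc receptors, type I interferon drives a large set of antiviral genes, and macrophages and lymphocytes enter the interstitium before matrix is laid down. The kidney also runs a circadian clock, in which BMAL1 (encoded by Arntl) pairs with CLOCK or NPAS2 to activate genes that carry E-box sequences, and the PER and CRY proteins that result shut the pair off again. Arntl and Npas2 therefore peak at the opposite phase of the day from Dbp, Tef, Ciart and the Per genes in most tissues. Cholesterol synthesis genes are switched on together by the transcription factor SREBP2 when sterol in the endoplasmic reticulum is low.

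Array medians in the pristane and untreated kidneys of weeks 4 and 8 lay between 4.24 and 4.42 on the log2 scale. Each of these arrays had a median correlation with the others of at least 0.982. That lowest value was that of untreated week 8 mouse 2, whose median of 4.42 was also the highest. The next lowest correlation was 0.993, in untreated week 4 mouse 7. The lowest value in the table, 2.21, recurred in 18.6% of all values, and 4473 of the 45037 probe sets tested held it in all 18 pristane arrays, so no difference could be seen there. The adrenal gene list (12 measured genes) had a mean level between 3.45 and 8.01 across the week 4 kidneys and between 3.47 and 7.77 across the week 8 kidneys, and the perirenal fat list (9 genes) ranged from 6.32 to 9.53 and from 5.75 to 9.11. Both lists spanned nearly the same range at both times, but their medians differed. The adrenal median was 4.77 at week 4 and 3.52 at week 8, and the fat median was 7.85 and 8.19. The part of both lists in the results was not tested beyond fits with each list's mean as a covariate.

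Few transcripts separated the 2 time points. In limma's moderated test, with p-values adjusted by Benjamini-Hochberg, 3 of the 45037 probe sets passed an adjusted p of 0.05 (0.00666%), all of them lower at week 8, and none of these reached a fold change of 2. The 3 belonged to Arntl, Slc43a2 and Dnajc3. At an unadjusted p under 0.05 there were 3123 probe sets (6.93%), of which 958 were higher (2.13%) and 2165 lower (4.81%) at week 8. Counted over the 17097 named genes, each represented by its brightest probe set, 2 genes passed the adjusted threshold. At an unadjusted p under 0.05 there were 1400 genes (8.19%), of which 424 were higher (2.48%) and 976 lower (5.71%). The size of a gene's log2 change had a median of 0.0453, and its standard error a median of 0.0643. In 11 genes (0.0643%) the values of the 8 week 8 kidneys did not overlap those of the 10 week 4 kidneys. Of these, 9 were lower and 2 were higher at week 8, the 2 being Lonrf3 and Csprs, the latter named only after its values were seen. Among the 6 genes with more than a 2-fold difference at an unadjusted p under 0.05 (0.0351%), Npas2 was the only lower one (0.00585%). The 5 higher ones (0.0292%) were Ms4a7, Cxcl13, Jchain, Igkj1 and Gm3715, the last 2 of which were likewise named after their values were seen.

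Arntl, which encodes the clock activator BMAL1, gave the lowest p in the whole table. Its log2 level was 5.72 at the lowest, 5.97 at the median and 6.16 at the highest in the week 4 kidneys, against 4.78, 5.07 and 5.35 in the week 8 kidneys. No week 8 kidney reached the level of any week 4 kidney. Arntl fell by 0.91 on the log2 scale (SE 0.0859, 95% interval -1.09 to -0.73, adjusted p = 0.000383), which is 1.88-fold lower. In untreated kidneys it measured 5.70 ± 0.292 (SD, n = 9) at week 4 and 5.44 ± 0.607 (SD, n = 10) at week 8, a change of -0.26 (adjusted p = 0.751). The difference between the pristane and the untreated change was -0.65 (95% interval -1.14 to -0.16, adjusted p = 0.954), so a larger fall with pristane was not established. A second Arntl probe set lay near the lowest value of the table, with a change of 0.02, and carries no information on the gene.

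Npas2, which encodes a partner of BMAL1 that can stand in for CLOCK, had the same direction as Arntl. Its log2 level ran from 6.22 through a median of 6.89 to 7.72 at week 4 and from 5.52 through 5.88 to 6.07 at week 8. These ranges did not overlap. The change was -1.05 (SE 0.168, 95% interval -1.40 to -0.69), and its adjusted p of 0.053 missed the threshold. Npas2 passed with all groups in a single fit (adjusted p = 0.00954), with probe sets below the 40th percentile of signal filtered out (0.0128), with the adrenal covariate (0.0212), by the mean over its probe sets (0.022, change -0.51) and after median centring (0.0448). It missed with quantile normalisation, the fat covariate, trended and robust variance, group weights and the replicate block. It also missed in 16 of the 18 fits that left out 1 mouse. The other Npas2 probe set did not share the direction. In untreated kidneys the Npas2 change was 0.06. Clock, the other partner, differed by 0.02 (95% interval -0.19 to 0.22).

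**Figure D1:**
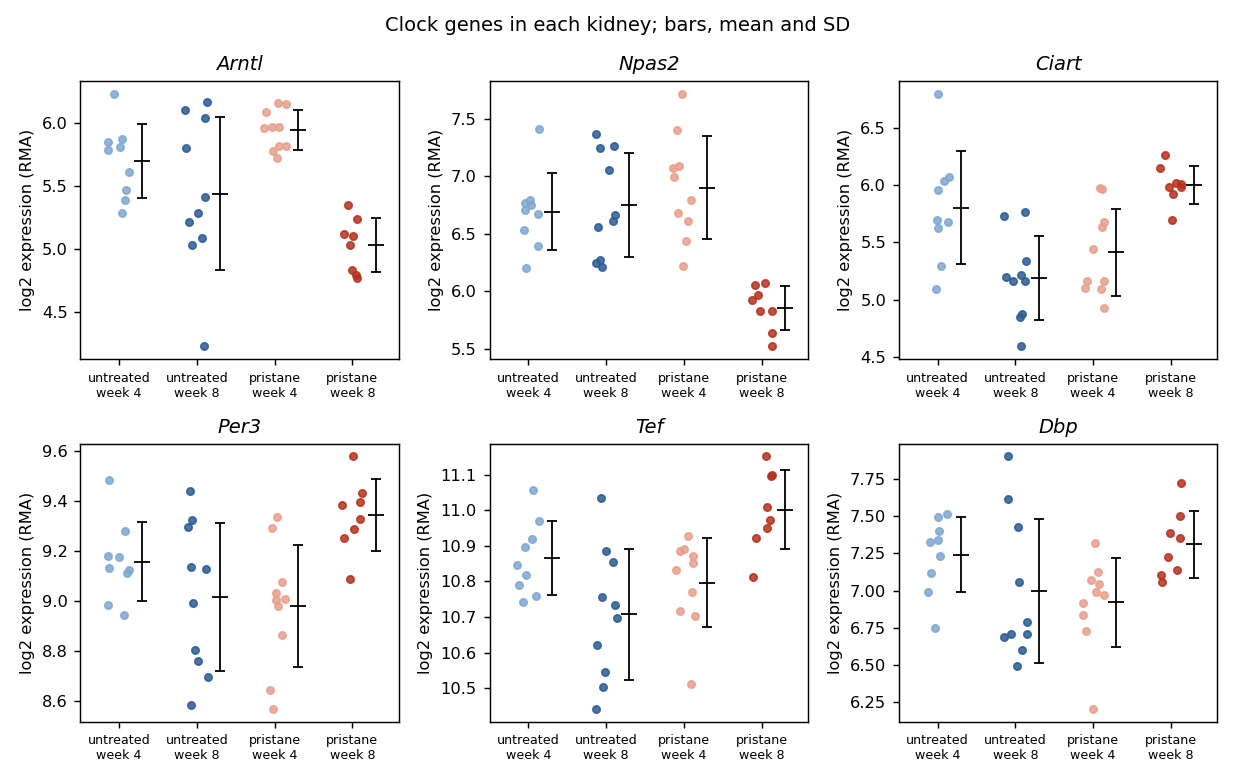
Log2 expression (RMA) of 6 clock genes in each kidney of the 4 groups, untreated and pristane at weeks 4 and 8, with the group mean and SD as bars beside the points. The 8 pristane week 8 kidneys sit below all 10 pristane week 4 kidneys for Arntl and Npas2, and shift upward with overlap for Ciart, Per3, Tef and Dbp.

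Of the other clock genes, 7 were higher at week 8 at an unadjusted p under 0.05, each short of the adjusted threshold. Ciart, a repressor of BMAL1 activity, ran from 4.93 through 5.30 to 5.97 at week 4 and from 5.70 through 5.99 to 6.26 at week 8, with 6 of the 8 week 8 kidneys above every week 4 kidney. Its change was 0.59 (SE 0.142, 95% interval 0.28 to 0.89, adjusted p = 0.229). Dbp, an output transcription factor of the clock, ran from 6.20 through 6.98 to 7.32 and then from 7.06 through 7.29 to 7.72, a change of 0.39 (SE 0.126, adjusted p = 0.436). Per3, a period repressor, differed by 0.36 (SE 0.0965, adjusted p = 0.293), and Tef, a relative of Dbp, by 0.21 (SE 0.0558, adjusted p = 0.302). The remaining members higher at an unadjusted p under 0.05 were Per1 (0.29), Nr1d2 (0.22), a repressor of Arntl, and Hlf (0.14). Per2 differed by 0.40 with a 95% interval of -0.01 to 0.81. For the single Cry1 probe set, also a repressor, the change was -0.09 (95% interval -0.21 to 0.02).

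Counted as a list, 1 of the 19 measured clock genes fell (Arntl) and 0 rose at the adjusted threshold, where 0.0117% of all genes fell. At an unadjusted p under 0.05, 7 were higher and 2 lower, where 2.48% of all genes were higher and 5.71% lower, and the median change was 0.07. In untreated kidneys 5 of the 19 were lower and 0 higher at that level, where 9.32% of all genes passed it and 6.49% were lower, and the list median was -0.13. For the difference of the changes, 8 members were higher and 2 lower in the pristane mice, where 4.63% of all genes passed that level and 2.85% were higher, and 0 passed the adjusted threshold. The largest of these differences was that of Ciart at 1.20 (SE 0.246, 95% interval 0.70 to 1.70, adjusted p = 0.0761), since Ciart differed by -0.61 in untreated kidneys. With every group of the series in a single fit, 5 clock genes in place of 9 stood at an unadjusted p under 0.05.

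The promoter windows below are shown because Ciart and Per3 were the clock members with the lowest p among those that were higher at week 8. They are the 250 bases before the RefSeq start of each gene on GRCm38.p6, read 5′ to 3′ on the gene's own strand. In the Ciart window (chr3:95882229-95882478, minus strand) the capitals mark CACGTG, the E-box that BMAL1 dimers bind. In the Per3 window (chr4:151044666-151044915, minus strand) the capitals mark TTATGTAA, the D-box bound by DBP, TEF and HLF.
Ciart: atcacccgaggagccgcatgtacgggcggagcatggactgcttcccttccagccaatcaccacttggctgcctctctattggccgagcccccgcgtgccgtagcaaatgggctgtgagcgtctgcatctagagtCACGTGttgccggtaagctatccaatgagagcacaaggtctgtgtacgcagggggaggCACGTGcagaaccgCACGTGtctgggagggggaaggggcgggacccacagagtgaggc
Per3: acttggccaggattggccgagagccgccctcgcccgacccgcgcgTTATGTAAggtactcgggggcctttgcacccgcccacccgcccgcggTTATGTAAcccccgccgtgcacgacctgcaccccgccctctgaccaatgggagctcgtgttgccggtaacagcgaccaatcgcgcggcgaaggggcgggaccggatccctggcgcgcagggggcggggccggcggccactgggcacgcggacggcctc
Ciart carried 3 E-boxes and Per3 carried 2 D-boxes within these windows. Searched on both strands, CACGTG stood in the window of 5 of the 16 clock genes with an entry (Per1, Cry1, Tef, Bhlhe41 and Ciart) and of 6.86% of all 27025 genes in the table. TTATGTAA stood in 1 of the 16, Per3, and in 0.977% of all genes. Of the genes that hold an E-box, Ciart, Tef and Per1 were higher at week 8, while Cry1 and Bhlhe41 had changes of -0.09 and -0.01. A match of letters is a description of the sequence and not a measured site.

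Cholesterol synthesis genes formed the list with the lowest median. Of 16 measured genes, 0 passed the adjusted threshold, 11 were lower at an unadjusted p under 0.05, where 5.71% of all genes were, and 0 had a change above 0. The median change was -0.41, where the median over all genes was near 0. In untreated kidneys the same list had a median of 0.01. There 1 member was higher and 0 lower at an unadjusted p under 0.05, where 2.83% and 6.49% of all genes were. For the difference of the changes, 10 of the 16 were lower in pristane mice, where 1.77% of all genes were, with a list median of -0.38 and 0 at the adjusted threshold. The mean level over the 16 genes was 8.15 ± 0.127 (SD, n = 10) in the week 4 pristane kidneys and 7.74 ± 0.137 (SD, n = 8) in the week 8 kidneys. In untreated kidneys this mean was 7.95 ± 0.168 (SD, n = 9) and 7.98 ± 0.356 (SD, n = 10).

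Idi1, which encodes isopentenyl diphosphate isomerase, had the lowest p of the pathway. Its level ran from 8.85 through 9.26 to 9.57 at week 4 and from 7.99 through 8.53 to 8.94 at week 8. Of the 8 week 8 kidneys, 7 lay below every week 4 kidney. The change was -0.80 (SE 0.128, 95% interval -1.07 to -0.53, adjusted p = 0.053), and Idi1 passed with the filter (0.0128), the adrenal covariate (0.0212), the gene mean (0.0294) and quantile normalisation (0.0492). Idi1 missed the threshold in 16 of the 18 fits that left out 1 mouse. Msmo1, a sterol methyl oxidase, ran from 6.98 through 7.62 to 8.13 and then from 6.22 through 6.85 to 7.03, a change of -0.87 (SE 0.154, adjusted p = 0.0669, or 0.0223 with the filter), with 7 of the 8 below every week 4 kidney. Fdps, the farnesyl diphosphate synthase, differed by -0.84 (SE 0.179, adjusted p = 0.149). The 3 genes are separate steps of the pathway and shared the direction in all their probe sets.

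Smaller differences in the same direction covered the later steps and the regulators. Sqle, the squalene epoxidase, differed by -0.56 (SE 0.125), Dhcr7, which completes cholesterol, by -0.49 (SE 0.129) and Fdft1, the squalene synthase, by -0.46 (SE 0.0994). Insig1, a sterol sensor and itself a target of SREBP2, differed by -0.47 (SE 0.0991), and Stard4, a sterol carrier, by -0.29 (SE 0.0587). Srebf2, the gene of SREBP2, differed by -0.16 (SE 0.0652). Hmgcs1 was the exception, with a median of 6.02 at both times and a 95% interval of -0.22 to 0.21. Cyp51 differed by -0.12 in pristane and by 0.19 in untreated kidneys, a difference of -0.31 (SE 0.0792, adjusted p = 0.266). The sterol response element, searched as TCACNCCAC on both strands of the 250-base windows, was found in 1 of the 12 list members with an entry (Hmgcs1), where 1.22% of all genes had it.

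**Figure D2:**
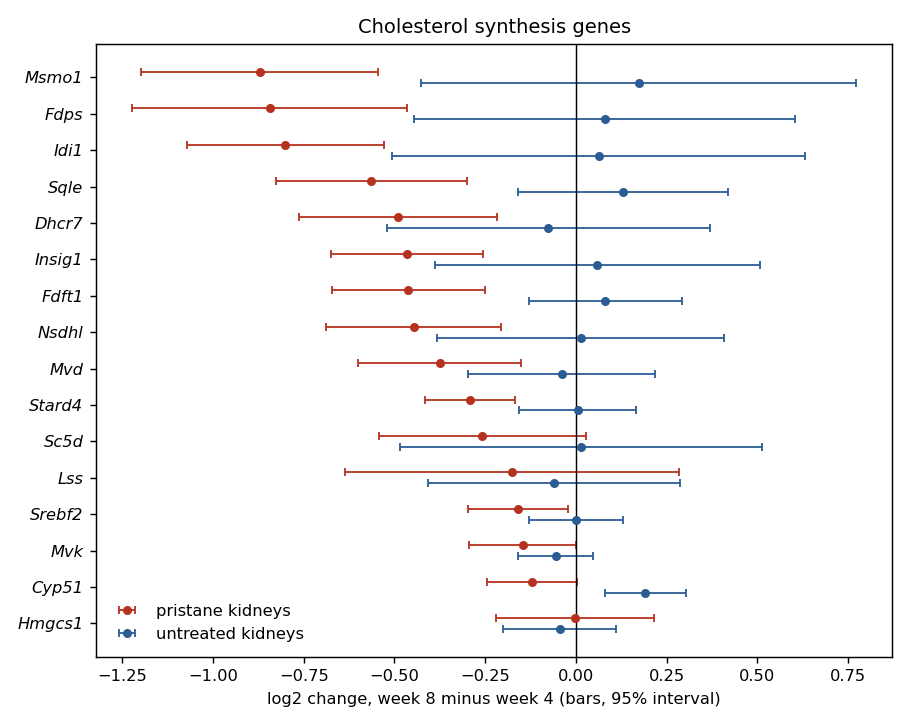
Log2 change from week 4 to week 8 for each of the 16 cholesterol synthesis genes, in pristane kidneys (red) and untreated kidneys (blue), with 95% intervals as horizontal bars. All 16 pristane points lie at or below 0, down to -0.87 for Msmo1, while the untreated points scatter around 0 between -0.08 and 0.19.

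Slc43a2 was the other named gene that passed the adjusted threshold. Slc43a2, a transporter of branched-chain and other large neutral amino acids, ran from 10.10 through 10.23 to 10.40 at week 4 and from 9.44 through 9.64 to 10.03 at week 8. The ranges did not overlap. Slc43a2 fell by 0.51 on the log2 scale (SE 0.0716, 95% interval -0.66 to -0.36, adjusted p = 0.0302), or 1.42-fold. It missed the threshold without any 1 of week 4 mice 3, 5, 7, 9 and 10 or week 8 mice 4, 5, 6 and 8, 9 of the 18 fits that each left out 1 mouse, with a change between -0.49 and -0.52 and an adjusted p up to 0.105. Its 3 probe sets all had negative changes, but only the brightest passed. Another, of mean level 7.67, changed by -0.11 (adjusted p = 0.841). The last, near the lowest value of the table, changed by -0.18 (adjusted p = 0.775). In untreated kidneys the change was -0.32 (adjusted p = 0.288), and the difference of the changes was -0.19 (95% interval -0.43 to 0.05).

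Values of the remaining lower genes by p stood just short of the threshold, and each of Avpr1a, Ddc, Tfrc, Arl15, Pitpnb and Fads1 passed under at least 1 alternative. Avpr1a, a vasopressin receptor, ran from 7.74 through 8.13 to 8.26 at week 4 and from 7.28 through 7.56 to 7.72 at week 8, without overlap (change -0.53, SE 0.0796, adjusted p = 0.053). Ddc, the enzyme that makes dopamine in the proximal tubule, ran from 9.87 through 10.10 to 10.34 and then from 9.43 through 9.77 to 9.87, without overlap (change -0.40, SE 0.0636, adjusted p = 0.053). Tfrc, the transferrin receptor that takes up iron, ran from 10.85 through 11.03 to 11.37 and then from 10.38 through 10.61 to 10.80, also without overlap (change -0.45, SE 0.0746, adjusted p = 0.0553). In untreated kidneys the changes of these genes were -0.25, -0.05 and 0.00. Arl15, a small GTPase gene, differed by -0.36 and Pitpnb, a phosphatidylinositol transfer protein gene, by -0.22 (adjusted p = 0.0553 for both). Fads1, the delta-5 fatty acid desaturase, differed by -0.40 (SE 0.0672, adjusted p = 0.0613), with 5 of 8 week 8 kidneys below every week 4 kidney.

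The third probe set at the adjusted threshold belonged to Dnajc3, an inhibitor of the stress kinase PERK, and fell by 0.46 (SE 0.0637, adjusted p = 0.0302). The other probe sets of Dnajc3 gave changes from -0.24 to 0.09, and the brightest of the 5 gave -0.09 (adjusted p = 0.841), so the gene's probe sets disagree. The call was also lost, with an adjusted p up to 0.105, without any 1 of week 4 mice 3, 5, 9 and 10 or week 8 mice 1, 4, 5 and 8. Of 19 unfolded protein response genes, 0 passed the adjusted threshold, 7 were lower and 0 higher at an unadjusted p under 0.05 (5.71% of all genes were lower), and the median was -0.20 against -0.01 in untreated kidneys. Dnajb11, a cofactor of the chaperone BiP, differed by -0.32 (SE 0.0872, adjusted p = 0.302), Manf, a secreted stress protein, by -0.44 (SE 0.143) and Sdf2l1 by -0.50 (SE 0.172). Hspa5, which encodes BiP, differed by -0.23 (SE 0.102). The stress transcription factor genes Atf4 and Ddit3 had changes of -0.07 and 0.10. The number of members at that level was 3 without week 8 mouse 1 or 2 and 4 without week 4 mouse 3 or 9. Of 13 heat shock genes 4 were lower at that level, beside the same 5.71% of all genes, led by Hsp90aa1 (-0.38, SE 0.121) and the co-chaperone gene Bag3 (-0.21, SE 0.0899), and the list median was -0.07. The heat shock count was 1 or 2 in 11 of the 18 fits that left out 1 mouse.

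Among genes higher at week 8, none passed the adjusted threshold in the main fit of the 18 pristane arrays. Lonrf3, which encodes a RING finger protein, ran from 5.37 through 5.67 to 5.90 at week 4 and from 5.96 through 6.18 to 6.60 at week 8. All 8 week 8 kidneys lay above every week 4 kidney (change 0.55, SE 0.0853, 95% interval 0.37 to 0.73, adjusted p = 0.053), and the untreated change was 0.05. Lonrf3 passed with the 40th-percentile filter (adjusted p = 0.0128), quantile normalisation (0.0275), the adrenal covariate (0.0418) and median centring (0.0448). It missed the threshold in 15 of the 18 fits that left out 1 mouse. Gimap3 and Gimap4 belong to a family of GTPases that regulate lymphocyte survival. Gimap3 ran from 6.86 through 7.03 to 7.37 and then from 7.29 through 7.85 to 8.31, with 7 of 8 above every week 4 kidney (change 0.78, SE 0.133, adjusted p = 0.0613), and Gimap4 differed by 0.37 (SE 0.0855, adjusted p = 0.195). Gimap3 passed with the filter (adjusted p = 0.0209), quantile normalisation (0.0492) and the gene mean (0.0441), and missed in 17 of those 18 fits. It differed also by 0.72 in untreated kidneys (adjusted p = 0.18), and the difference of the changes was 0.06 (95% interval -0.39 to 0.50). Ppara, the fatty acid-sensing nuclear receptor, differed by 0.44 (SE 0.0781, adjusted p = 0.0669) and is taken up with the untreated mice. Ppara passed with the filter (adjusted p = 0.0303) and quantile normalisation (0.0492), and missed in all 18 fits that left out 1 mouse. Gabarapl1, an autophagy gene, differed by 0.22 (SE 0.0428, adjusted p = 0.0931, or 0.022 by the gene mean). The endothelin receptor gene Ednrb differed by 0.35, the sulfate transporter gene Slc13a4 by 0.42, the carnitine transporter gene Slc22a21 by 0.39, Angptl7 by 0.26 and the noncoding RNA Bvht by 0.25. Their adjusted p-values lay between 0.133 and 0.165, and 5 to 7 of the 8 week 8 kidneys stood above every week 4 kidney.

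Between the same weeks, other genes passed the threshold in untreated mice. In untreated kidneys 4 probe sets fell by more than 2-fold (0.00888%), namely those of Zbtb16, Angptl4, Cyp27b1 and 1 with no gene name here. Each of the 3 genes missed the threshold in 8 to 11 of the 19 fits that left out 1 untreated mouse, with an adjusted p up to 0.0746. Zbtb16, a transcription factor gene that glucocorticoids strongly induce, ran from 4.47 through 6.01 to 6.50 in untreated kidneys at week 4 and from 3.54 through 4.05 to 4.35 at week 8. It fell by 1.70 there (SE 0.230, adjusted p = 0.022). In pristane kidneys it ran from 3.81 through 4.55 to 5.42 at week 4 and from 4.89 through 5.17 to 6.16 at week 8, a change of 0.86 (SE 0.277, adjusted p = 0.437). The difference of the changes was 2.56 (SE 0.360, 95% interval 1.83 to 3.29, adjusted p = 0.000795), higher in pristane mice. It passed in each of the 37 fits that left out 1 mouse, with an adjusted p up to 0.00247. A second Zbtb16 probe set lay near the lowest value of the table, with a difference of -0.05, so the result rests on 1 probe set.

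Ppara was the only other named gene whose change differed between pristane and untreated mice, 2 genes in all (0.0117%). In pristane kidneys it ran from 6.15 through 6.33 to 6.71 at week 4 and from 6.68 through 6.77 to 7.06 at week 8, with 6 of 8 above every week 4 kidney. In untreated kidneys it ran from 6.54 through 6.83 to 7.25 and then from 6.06 through 6.36 to 7.02, a change of -0.43 (adjusted p = 0.321). The difference of the changes was 0.87 (SE 0.152, 95% interval 0.56 to 1.18, adjusted p = 0.0245). It missed the threshold in 6 of the 37 fits without 1 mouse, with an adjusted p up to 0.0566 without untreated week 4 mouse 7. The others were those without pristane week 4 mouse 2 or 7, pristane week 8 mouse 5, untreated week 4 mouse 6 and untreated week 8 mouse 9. All 3 Ppara probe sets had the same direction, but only the brightest passed, the others having differences of 0.32 and 0.68 (adjusted p = 0.976 and 0.454). In all, 6 probe sets passed for the difference of the changes (0.0133%), each higher in pristane mice, and 4 of them carry no gene name here, with differences between 0.69 and 3.16.

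**Figure D3:**
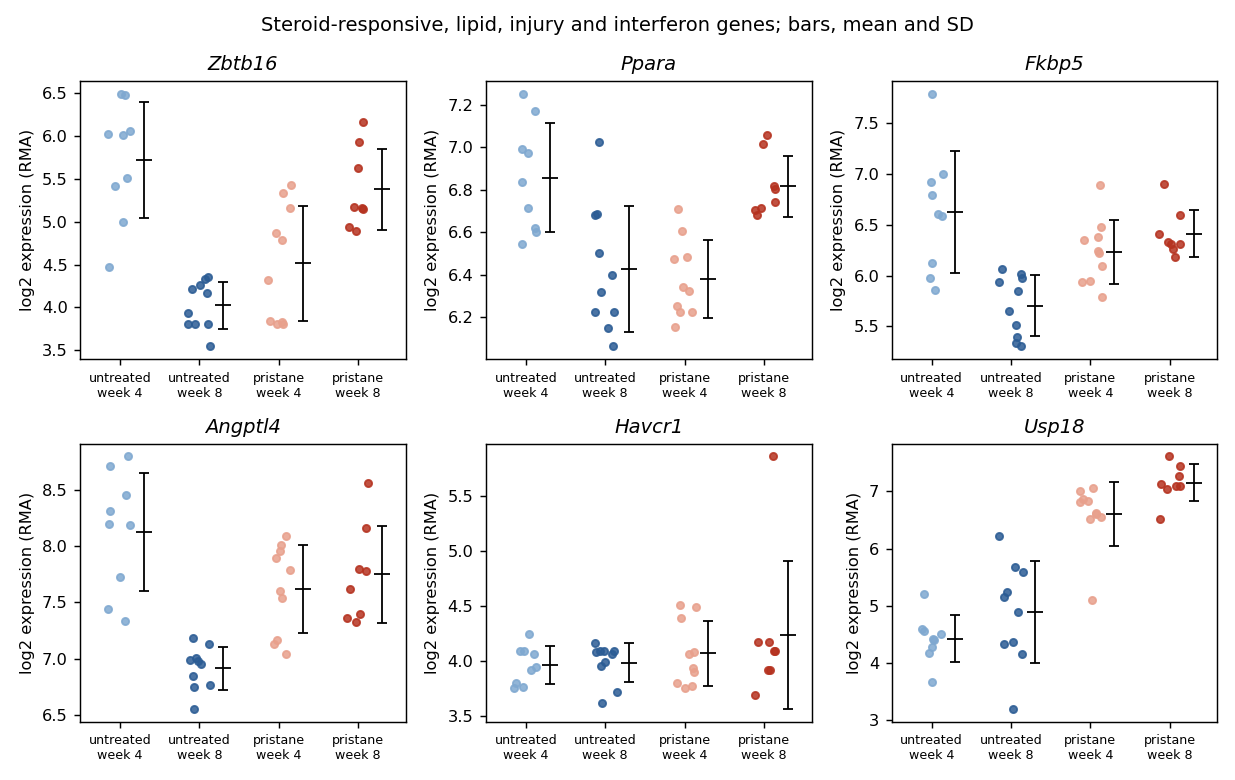
Log2 expression (RMA) of Zbtb16, Ppara, Fkbp5, Angptl4, Havcr1 and Usp18 in each kidney of the 4 groups, with the group mean and SD as bars beside the points. The mean of Zbtb16, Fkbp5 and Angptl4 is lower at week 8 than at week 4 in the untreated groups and not in the pristane groups, Havcr1 has a single high kidney of 5.86 at pristane week 8, and Usp18 is high in the pristane groups at both weeks.

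The wider lists around these genes had medians in the same directions. Of 15 glucocorticoid-responsive genes, 0 passed in pristane kidneys, and the median was 0.07. At an unadjusted p under 0.05, 2 were higher there, where 2.48% of all genes were. In untreated kidneys 2 fell (Zbtb16 and Angptl4), where 0.0175% of all genes did, and the median was -0.46. At an unadjusted p under 0.05, 13 were lower there, where 6.49% of all genes were. The difference of the changes was higher in pristane mice for 11 members at an unadjusted p under 0.05, where 2.85% of all genes were. Of the 11, Zbtb16 alone passed the adjusted threshold. Fkbp5, an inhibitor of the glucocorticoid receptor and a target of it, differed by 0.18 in pristane kidneys and by -0.93 in untreated kidneys, a difference of 1.11 (SE 0.254, adjusted p = 0.17). Tsc22d3, another target, had a difference of 0.60 (SE 0.235). Of 22 fatty acid oxidation genes, 3 were higher in pristane kidneys at an unadjusted p under 0.05, where 2.48% of all genes were, and 0 lower. The 3 were Ppara, Cpt2 (0.27) and Cyp4a10 (0.22), and the median was 0.07 against -0.13 in untreated kidneys. The difference of the changes was higher in pristane mice for 8 of the 22 at that level, where 2.85% of all genes were. Ppara alone passed the adjusted threshold, and Cpt2, the inner-membrane carnitine acyltransferase, had a difference of 0.42 (SE 0.140). Cyp27b1, which activates vitamin D, fell by 1.20 in untreated kidneys (adjusted p = 0.022) and differed by -0.30 in pristane kidneys (95% interval -0.69 to 0.10).

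No interferon-stimulated gene passed the adjusted threshold between weeks 4 and 8. Of 20 measured, 18 had a change above 0, 2 were higher at an unadjusted p under 0.05 (2.48% of all genes) and the median was 0.28, against 0.15 in untreated kidneys. Usp18, a negative regulator of interferon receptor signalling, ran from 5.09 through 6.72 to 7.05 at week 4 and from 6.52 through 7.11 to 7.62 at week 8. The groups overlapped, with 6 of the 8 above every week 4 kidney (change 0.56, SE 0.220, adjusted p = 0.597). Oasl1 differed by 0.46 (SE 0.217), near the lower end of the scale. Irf7, the transcription factor that amplifies the interferon response, ran from 4.28 through 5.44 to 6.23 and then from 4.59 through 6.01 to 6.85, a change of 0.52 (95% interval -0.07 to 1.12, adjusted p = 0.776). The mean level of the list was 6.22 ± 0.419 (SD, n = 10) at week 4 and 6.46 ± 0.287 (SD, n = 8) at week 8, while in untreated kidneys it was 5.11 ± 0.183 (SD, n = 9) and 5.32 ± 0.369 (SD, n = 10). At week 4 this mean ranged from 5.19 to 6.69 in pristane kidneys and from 4.76 to 5.36 in untreated kidneys. The difference of the changes had a list median of 0.01.

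The nucleic acid sensors that feed interferon production had a median change of 0.07 over 16 genes. At an unadjusted p under 0.05, 2 of them were higher, where 2.48% of all genes were. These were Mavs, the adaptor of the RNA sensors (0.19, SE 0.0549), and Ifi203 (0.35, SE 0.103), which lay near the bottom of the scale. Ifih1, the RNA sensor MDA5, differed by 0.20 (95% interval -0.11 to 0.50). Sting1, the adaptor of cytosolic DNA sensing, differed by 0.03 (95% interval -0.21 to 0.26), and by -0.06 without week 8 mouse 4. Aim2, which the paper reports beside Sting, had no probe set named for it alone here, so it was not measured.

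Macrophage markers had medians above 0 in both arms. Of 20 measured, 0 passed the adjusted threshold, 17 had a change above 0 and 5 were higher at an unadjusted p under 0.05 in pristane kidneys (2.48% of all genes), with a median of 0.46. In untreated kidneys 10 were higher, where 2.83% of all genes were, and the median was 0.54. Ms4a7, a marker of resident and infiltrating macrophages, ran from 3.68 through 4.41 to 5.69 at week 4 and from 4.66 through 5.55 to 6.99 at week 8. Only 3 of the 8 lay above every week 4 kidney, and the change of 1.13 had a standard error of 0.340 (95% interval 0.41 to 1.85, adjusted p = 0.389). Mrc1, the mannose receptor, differed by 0.72 (SE 0.257), Ctss, a lysosomal protease, by 0.67 (SE 0.308) and Adgre1, a macrophage adhesion receptor, by 0.62 (SE 0.240). In untreated kidneys these differed by 0.80, 1.14 and 0.96. The number of members at an unadjusted p under 0.05 was 8 without week 4 mouse 4, 9 without week 8 mouse 1 and 2 with all groups of the series in a single fit. Csf1r, the receptor that macrophages need to survive, had a change of 0.01. The list mean was 5.61 ± 0.316 (SD, n = 10) and 5.96 ± 0.378 (SD, n = 8), and its highest kidney in each pristane group was mouse 4 of that week. For the difference of the changes the list median was -0.22 and 0 members passed even an unadjusted p under 0.05.

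The lists tied to antigen presentation and immune complexes also had medians above 0 in both arms. MHC class II had a median of 0.25 over 8 genes, and 3 were higher at an unadjusted p under 0.05, where 2.48% of all genes were. In untreated kidneys the median was 0.76 and 4 were higher, where 2.83% of all genes were. H2-Ab1 differed by 0.53 (SE 0.164, adjusted p = 0.407) and H2-Eb1 by 0.44 (SE 0.181). The class II count was 5 without week 4 mouse 4, 1 without week 8 mouse 4 and 0 with all groups in a single fit. In untreated week 8 kidneys the class II list mean ran from 6.39 through 6.92 to 8.50, highest in mouse 3. That untreated mouse was also the highest of its group for the MHC class I, Fc gamma receptor, complement, chemokine and macrophage lists. MHC class I and peptide loading had a median of 0.13 over 11 genes against 0.41. Fc gamma receptors and their signalling had a median of 0.40 over 8 genes against 0.48, and Fcgr4, an activating receptor for IgG, differed by 0.87 (SE 0.281, adjusted p = 0.442). Fcgr1 differed by 0.46 (95% interval -0.27 to 1.19). All 12 measured complement genes had a change above 0, with a median of 0.29 against 0.38. Cfb of the alternative pathway was the 1 at an unadjusted p under 0.05 (0.12, SE 0.0466). C3 had no probe set named for it alone here and was not measured. No member of these lists passed the adjusted threshold in either arm or for the difference of the changes.

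Chemokines had a median of 0.19 over 22 genes, against 0.38 in untreated kidneys. Cxcl13, which attracts B cells, ran from 4.56 through 5.58 to 6.91 at week 4 and from 5.64 through 6.49 to 8.22 at week 8, a change of 1.06 (SE 0.375, 95% interval 0.26 to 1.85, adjusted p = 0.524). In untreated kidneys it differed by 1.16, and the difference of the changes was -0.10 (SE 0.544). A Cxcl13 probe set passed in the pristane comparison with the adrenal covariate (change 0.85, adjusted p = 0.0435). T and natural killer cell genes had a median of 0.06 over 17 genes, 4 of them higher at an unadjusted p under 0.05 (2.48% of all genes). These were the CD3 chains of the T cell receptor, Cd3d (0.19, SE 0.0596), Cd3e (0.36, SE 0.121) and Cd3g (0.50, SE 0.171), and the costimulator Icos (0.30, SE 0.136). Cd3g and Icos lay low on the scale, with week 4 medians of 2.38 and 2.66. The T cell count was 7 without week 8 mouse 7 and 0 with all groups in a single fit. No B cell gene of the 11 passed even an unadjusted p under 0.05.

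Of 8 immunoglobulin and plasma cell genes, 0 passed the adjusted threshold, 2 were higher at an unadjusted p under 0.05 (2.48% of all genes were) and the median was 0.10. Jchain, the joining chain of secreted IgM and IgA, ran from 7.29 through 8.64 to 10.86 at week 4 and from 8.35 through 9.99 to 11.55 at week 8. The change was 1.35 (SE 0.473, 95% interval 0.35 to 2.35, adjusted p = 0.51), with 1 of 8 above every week 4 kidney. In untreated kidneys it differed by 1.13. Igkj1, a kappa light chain segment, differed by 1.69 (SE 0.580, adjusted p = 0.497), against 1.64 in untreated kidneys, and Gm3715 by 1.44 (SE 0.425, adjusted p = 0.379), against 2.10.

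**Figure D4:**
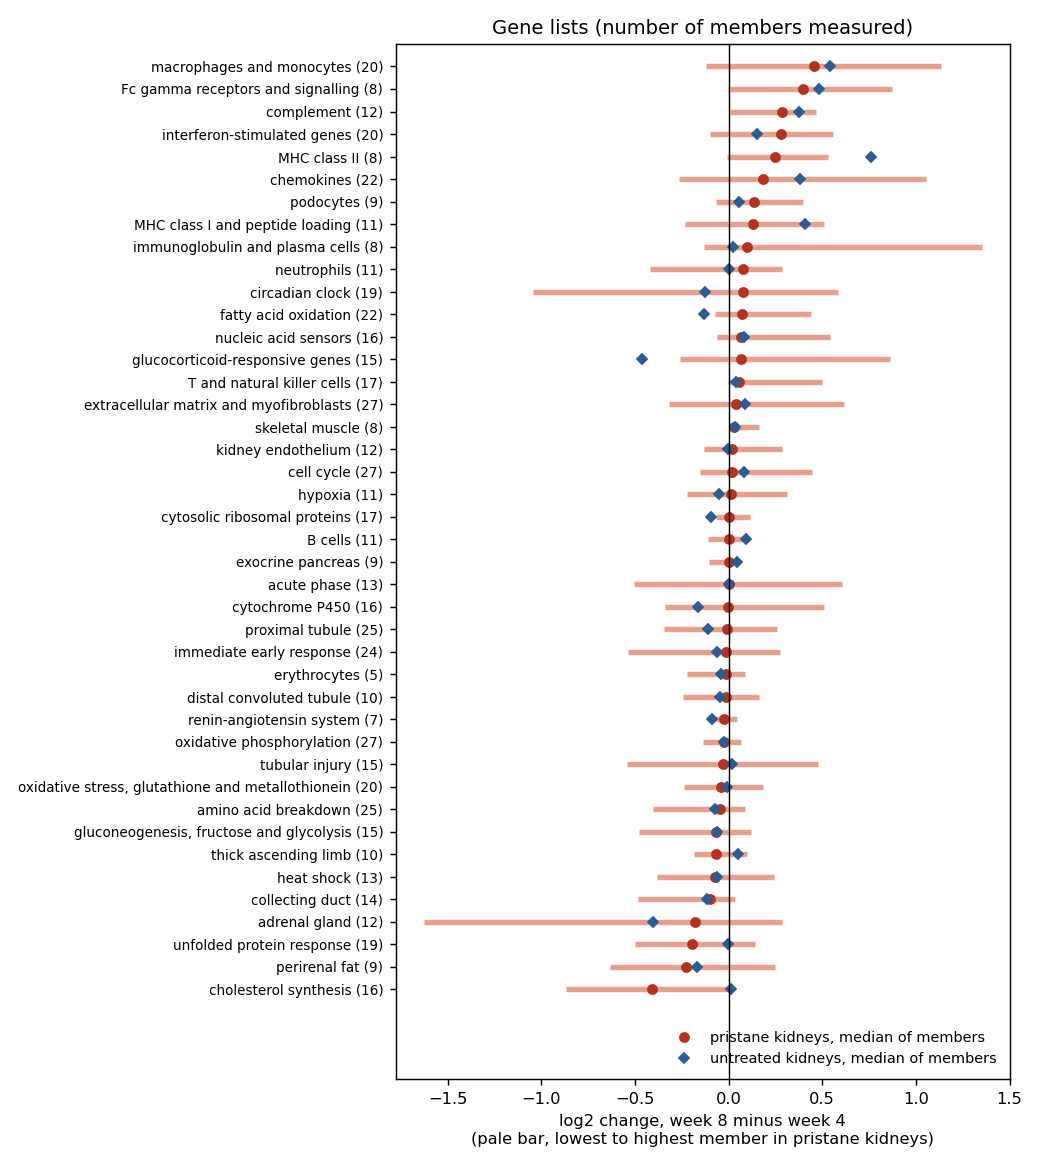
Median log2 change from week 4 to week 8 of each of the 42 gene lists, with the number of measured members in brackets, for pristane kidneys (red circles) and untreated kidneys (blue diamonds), and pale bars from the lowest to the highest member in pristane kidneys. Cholesterol synthesis lies lowest at -0.41 and macrophages highest at 0.46 in pristane kidneys, and the 2 arms stand farthest apart for the glucocorticoid-responsive genes, MHC class II and cholesterol synthesis.

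Neutrophil and acute phase genes varied widely from mouse to mouse. S100a8, a neutrophil alarmin, ran from 3.11 through 7.08 to 9.25 at week 4 and from 3.91 through 6.09 to 9.17 at week 8, against 2.52 to 3.37 over all untreated kidneys of the same weeks. The change of -0.42 had a 95% interval of -2.09 to 1.24. S100a9 had a change of 0.08 (95% interval -1.47 to 1.62), which turned to -0.36 without week 4 mouse 1. Saa3, a serum amyloid gene, ran from 3.21 through 7.30 to 9.81 and then from 3.39 through 8.18 to 10.03, a change of 0.61 (95% interval -1.33 to 2.55). The Saa1 probe set was at the lowest value of the table in every kidney of the 4 groups. None of the 11 neutrophil genes passed an unadjusted p under 0.05. Of the 13 acute phase genes 1 was lower at that level, where 5.71% of all genes were.

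Injury and matrix genes showed no shift between weeks 4 and 8 that this design could resolve. Of 15 tubular injury genes, 0 passed an unadjusted p under 0.05, and the median was -0.03. Havcr1, which encodes the injury marker KIM-1, ran from 3.75 through 4.00 to 4.50 at week 4 and from 3.69 through 4.09 to 5.86 at week 8. The high value was that of mouse 4, the next kidney stood at 4.17, and the change of 0.17 (95% interval -0.32 to 0.66) became -0.06 without it. Lcn2, which encodes NGAL, ran from 5.57 through 6.34 to 7.27 and then from 4.48 through 6.28 to 8.14, a change of -0.26 (95% interval -1.18 to 0.66). Of 27 extracellular matrix and myofibroblast genes 0 passed an unadjusted p under 0.05, the median was 0.04, and the changes ran from -0.32 (Acta2, smooth muscle actin) to 0.61 (Timp1, an inhibitor of matrix proteases). Timp1 ran from 2.93 through 3.22 to 3.97 and then from 2.90 through 3.38 to 5.80, so the mean was carried by a few week 8 kidneys, and its change was 0.35 without week 8 mouse 2. The Acta2 change was -0.14 without week 4 mouse 4, whose level of 9.84 was the highest of its group. Col1a1 differed by 0.20 (95% interval -0.37 to 0.78) and Tnc by 0.24 (95% interval -0.40 to 0.87). The Col1a2 and Fbn2 probe sets lay at or near the bottom of the scale and carry little information. The 95% interval lay within a 2-fold change either way for 26 of the 27 matrix genes and for 12 of the 15 injury genes.

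Kidney cell marker lists had medians between -0.10 and 0.14. Podocyte genes had a median of 0.14 over 9, and 3 were higher at an unadjusted p under 0.05 (2.48% of all genes). These were Cdkn1c, a cell cycle inhibitor of mature podocytes (0.40, SE 0.103, adjusted p = 0.274), Ptpro (0.29, SE 0.106) and the podocyte transcription factor gene Wt1 (0.25, SE 0.0830). Cdkn1c ran from 6.03 through 6.61 to 6.73 at week 4 and from 6.67 through 6.91 to 7.35 at week 8, with 5 of 8 above every week 4 kidney. The slit diaphragm gene Nphs1 differed by 0.12. In the endothelium list, Ehd3 of glomerular endothelium differed by 0.26 (SE 0.0929) and Emcn by 0.29 (SE 0.128), while the median over 12 genes was 0.02. The proximal tubule list had a median of -0.01 over 25 genes, with the sulfate transporter Slc13a1 at 0.26 (SE 0.0725) and the amino acid transporter Slc7a8 at -0.35 (SE 0.126). The distal convoluted tubule list had a median of -0.02 over 10 genes. At an unadjusted p under 0.05, 1 was higher and 2 were lower, where 2.48% and 5.71% of all genes were. Its sodium chloride cotransporter Slc12a3 differed by 0.15 (SE 0.0568). The change of Emx1 lay between -0.24 and -0.17 in the fits that left out 1 mouse. Collecting duct, thick ascending limb and renin-angiotensin lists had medians of -0.10, -0.07 and -0.02. Only 3 of 14 collecting duct genes and 1 of 10 thick ascending limb genes had a change above 0. At an unadjusted p under 0.05, 1 collecting duct gene and 2 thick ascending limb genes were lower, where 5.71% of all genes were.

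Core metabolism had medians near 0. Oxidative phosphorylation had a median of -0.03 over 27 genes, and all 27 intervals lay within a 2-fold change. Cytosolic ribosomal protein genes, amino acid breakdown and cytochrome P450 genes had medians within 0.05 of 0. In the list of gluconeogenesis, fructose and glycolysis 5 of 15 genes were lower at an unadjusted p under 0.05 (5.71% of all genes), among them Pfkl (-0.26) and Pfkp (-0.24), both phosphofructokinase subunits, and the median was -0.07. The cell cycle list had a median of 0.02 over 27 genes, with the mitotic kinesin gene Kif11 at 0.31 (SE 0.140) and Ccnd1, which encodes cyclin D1, at 0.23 (SE 0.112). The lists for hypoxia, immediate early response and oxidative stress had medians of 0.01, -0.01 and -0.04. Erythrocyte, exocrine pancreas and skeletal muscle genes, checked as other possible contents of the tissue, had medians within 0.05 of 0 too.

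Over the whole series, the lowest group means of Arntl and Npas2 were those of the pristane kidneys at week 8. In pristane kidneys the mean of Arntl was 6.01 at week 2 and 5.03 at week 8, then 5.68 and 5.50 at weeks 12 and 14, while the untreated mean at week 0 was 7.67. The mean of Npas2 was 5.86 ± 0.194 (SD, n = 8) at week 8 and 7.08 ± 0.312 (SD, n = 8) at week 12. The mean of Idi1 was 8.47 at week 8 and 8.43 and 8.07 in the week 12 and week 14 pristane kidneys. For Ms4a7 the pristane means were 4.58 and 5.71 at weeks 4 and 8 and ranged over the series from 3.96 (week 2) to 8.64 (week 14), while no untreated group exceeded 4.52. In untreated kidneys the glucocorticoid-responsive list had its highest mean at week 4 (8.10), and 7.30 to 7.73 at the other weeks. The pristane means of that list ran from 7.90 to 8.24. Angptl4 too had its highest untreated mean at week 4 (8.13), with 6.05 to 7.27 at the other weeks. How far the Zbtb16 difference rests on the untreated week 4 level was not tested. Differences between these other weeks were not tested here.

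**Figure D5:**
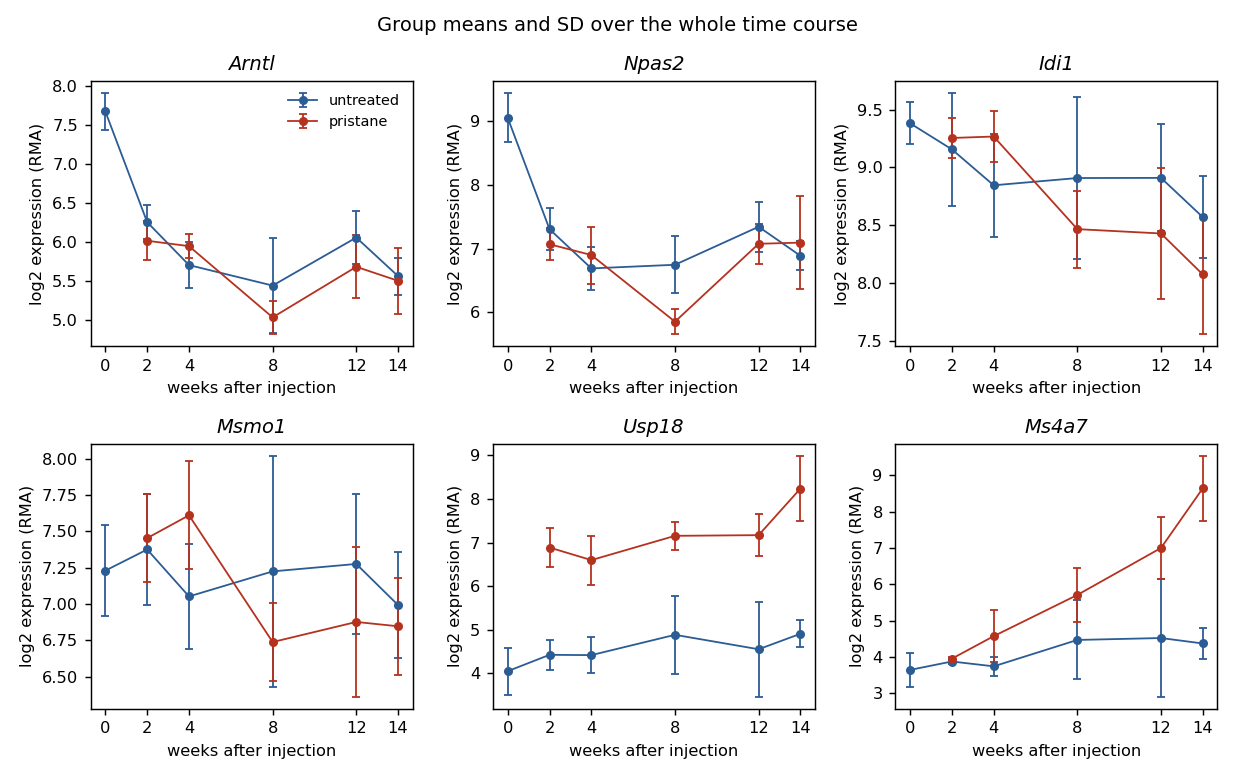
Group means with SD bars of log2 expression (RMA) for 6 genes against weeks after injection, in untreated (blue) and pristane (red) kidneys, the week 0 point being untreated. The red points of Arntl and Npas2 are lowest at week 8, those of Idi1 and Msmo1 are lower at week 8 than at week 4, those of Usp18 lie between 6.60 and 8.24, and those of Ms4a7 run from 3.96 at week 2 to 8.64 at week 14.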

How the data were processed

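The values used here were the log2 expression values the authors deposited for whole-kidney RNA on HT-MG-430 PM arrays, normalised by Robust Multi-array Average (RMA), which corrects background, quantile-normalises and summarises the probes of a probe set. RMA and Partek are named in the submitters' processing notes. A file of log2 values keeps neither scanner intensities nor detection calls, so precision rests on the number of mice alone. Groups came from the sample titles, and replicates are separate mice as far as the design text tells. Control probe sets (104) were left out. Gene names came from the platform annotation: of 45037 probe sets, 28898 had 1 symbol, 551 had several and 15588 had none here, and of the first 28689 had a gene identifier in RefSeq. A gene was represented by the brightest of its probe sets, by the mean of the 95 arrays.

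Week 8 minus week 4 was fitted with limma 3.58.1 (lmFit and eBayes, R 4.3.3) on the 18 pristane arrays, on the 19 untreated arrays, and for the difference of the changes on all 37. P-values were adjusted by Benjamini-Hochberg over all probe sets, with a threshold of 0.05 (and a fold change of 2 where stated), and intervals are 95%. The code was tested on simulated data. Genes were named by rule: the called genes and those of lowest p up to 10 in each direction, up to 3 called members of each gene list or else the 2 of lowest p, the kidney genes the study discusses, and the genes called in the untreated mice or for the difference of the changes; further list members are given as values. The 42 gene lists, the comparison and the rule were chosen with earlier results of these data known. Of 730 list entries, 95 had no probe set named here, among them Aim2 and C3, both on the list of kidney genes taken from the study. Alternatives were median centring, quantile normalisation, a 40th-percentile filter, a fit of all groups, trended and robust variance, group weights, the replicate number as a block, other thresholds, the mean over a gene's probe sets, adrenal or fat gene means as covariates, and leaving out each mouse.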

Additional observations from a re-analysis of the deposited data

Results flagged for a closer look

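The change from week 4 to week 8 differed between pristane and untreated mice for Zbtb16, by 2.56 (higher in pristane mice), and for Ppara, by 0.87, both by the limma test of the difference itself. Within the pristane groups, 26 values of named genes stood apart from the rest of their group by Dixon's criterion. Chance meets it in about 1 in 20 groups of normally spread values, and every named gene was tried in both groups. Several of the 26 lay near the bottom of the scale, where a very small gap can meet it.

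At week 8, mouse 4 was high for Havcr1 (5.86), H2-Eb1 (9.24) and Sting1 (4.78), and its Col1a2 value of 2.213 was the only one of that group above the lowest of the table, 2.209. Mouse 1 was low for Irf7 (4.59) and Saa3 (3.39) and high for Prss2 (2.58). Mouse 2 was high for Cd79b (4.40) and low for Higd1a (9.79), mouse 6 was low for Socs3 (2.22) and mouse 8 high for Fbn2 (3.26).

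At week 4, mouse 1 was low for Usp18 (5.09) and S100a9 (3.58). Mouse 4 was high for Acta2 (9.84), Col1a1 (8.46) and Pfkl (8.14). Mouse 6 was low for Cela1 (8.89), Higd1a (10.001) and Slc25a37 (9.75), and mouse 7 was low for Cdkn1c (6.03) and high for Derl3 (3.99) and Fbn2 (2.83). Mouse 3 was low for Agtr1a (8.32), mouse 5 high for Epb42 (4.35), mouse 2 high for Cyp11b2 (3.004) and mouse 10 high for Prss2 (2.23).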

How the results depend on the processing

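Arntl passed under the alternatives run, with an adjusted p up to 0.00741, except with the replicate number as a block (change -0.90, adjusted p = 0.0864), and its change was -0.45 as the mean over both probe sets. It passed without any 1 mouse (adjusted p up to 0.00185). Counts of probe sets moved more, and in most cases the cause was not tested. In the pristane comparison the counts at the adjusted p alone (3), with a fold over 2 (0) and among list members (1) became 8, 1 and 2 after median centring, 26, 2 and 6 with the 40th-percentile filter, which tests fewer probe sets, 5, 1 and 2 with all groups in a fit, and 23, 1 and 5 with the adrenal covariate. Quantile normalisation gave 11 and 4, the gene mean 8 and 4, the fat covariate 5 and 2 and the replicate block 0 and 0 (adjusted p alone and list members). Without a minimum fold the count was 3, and at an adjusted p of 0.01 it was 1. Leaving out 1 mouse gave 1 to 8, 0 to 1 and 1 to 3. The highest count, 8, came without week 8 mouse 7, and 7 each without week 4 mice 1, 4 and 8 and week 8 mouse 3. It was 1 without week 4 mice 3 and 5 and week 8 mice 4, 5 and 8.

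In the untreated comparison (4 at the adjusted p alone, 4 over 2-fold) the pairs of counts were 25 and 8 (median centring), 58 and 13 (filter), 52 and 11 (all groups), 54 and 11 (adrenal), 19 and 7 (fat), 23 and 7 (replicate block), 11 and 1 (gene mean), 0 and 0 (weights, and adjusted p of 0.01), and 12 by quantile normalisation. Without 1 mouse they ran from 0 to 21 and 0 to 9. For the difference of the changes (6 and 4) they were 16 and 8 (median centring), 20 and 11 (filter), 41 and 13 (replicate block), 10 and 2 (gene mean), 2 and 2 (adjusted p of 0.01) and 12 (adrenal), and without 1 mouse 3 to 23 and 3 to 12. The highest of these counts, 21 to 23, came without untreated week 8 mouse 10 or, for the difference, untreated week 4 mouse 3. The replicate block lost Slc43a2 (adjusted p = 0.243), and Zbtb16 and Ppara still passed for the difference of the changes. The numbers were not taken as pairs: over the 5000 most variable probe sets, the deviations of same-numbered pristane mice correlated between -0.13 and 0.61, and 3 of 8 correlated best with their own number.

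Small changes reversed. S100a9 was -0.0256 with the replicate block and ran from -0.359 to 0.44 without 1 mouse, below 0 without week 4 mouse 1 or 9 or week 8 mouse 2, 3 or 4. Rpl37 was -0.0183 by the gene mean. Without 1 mouse Havcr1 ran from -0.0632 to 0.25, Mme from -0.18 to 0.0141 and Sting1 from -0.0636 to 0.0648, each turning without week 8 mouse 4. Values at the bottom of the scale limit genes of low signal.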
